A study of Canis lupus familiaris with 15 samples.

Results

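GATA4 (ENSCAFG00000029087) and GATA6 (ENSCAFG00000023151) are transcription factors of the GATA family, and their mRNA was followed here in the corpus luteum (CL) of dogs. Both genes were taken by their identifiers, 2 of the 23630 genes in the count file, and both passed the filter on low counts. GATA factors carry zinc fingers that bind short DNA motifs with the core that gave the family its name. In the gonads GATA4 and GATA6 are expressed in steroid-producing and supporting cells, where they are known to switch on genes of steroidogenesis, such as those of cholesterol transport and P450 enzymes, together with partners like SF1, C/EBPβ and AP-1, while other cofactors restrain them. The CL makes progesterone (P4), which maintains pregnancy, and loses this function at luteolysis.

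All dogs were clinically healthy cross-breed bitches of 2 to 8 years, and 1 library of poly-A selected RNA was sequenced per dog. Mid-gestation (n = 5) covered days 35 to 40 after ovulation. The antigestagen group (n = 5) consisted of dogs at days 40 to 45 of pregnancy given aglepristone, a blocker of the P4 receptor. It was injected 2 times with an interval of 24 h at 10 mg/kg each, and the CL followed 24 h later. Luteolysis (n = 3) was the natural prepartum decline, recognised when P4, sampled every 6 h from day 58 of pregnancy, lay below 2 to 3 ng/ml in 3 consecutive measurements. Luteal regression (n = 2) was the late non-pregnant CL of day 65, a group of which the study states that 3 samples were sequenced. Dogs are numbered within their group in the order of the deposit, and the numbers link no dogs across groups. The untreated mid-gestation dogs are the control of the antigestagen group, although they were collected some days earlier. Whole CL tissue was sequenced, so that fewer cells of a type and less mRNA per cell cannot be told apart.

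Total counts ran from 8558743 to 26284315 per dog. Luteolysis dog 1 stood apart from its group: its rank correlation over all fitted genes was 0.912 and 0.928 with the other luteolysis dogs, against 0.976 between these. The calls made below against luteolysis are therefore also given without this dog. Antigestagen dogs 4 and 5 stood apart from the rest of their group as well, at −51.0 and −68.2 on the first principal component against 2.22 to 20.5. Defining markers of luteal cells (STAR, CYP11A1 and the rest of that list) could not be paired with an identifier, nor could those of the ovarian surface epithelium, and the labelled tissue was not checked against them.

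GATA4 was lowest during luteolysis. The level, in CPM (reads of the gene scaled to a common library size), was 61.2, 88.7 and 59.1 in luteolysis dogs 1, 2 and 3. In the antigestagen group it was 100.2, 107, 109, 66.6 and 101 CPM. Both luteal regression dogs were high, with 118 and 126 CPM. The mid-gestation dogs had 110.1, 122.2, 91.2, 134 and 99.5 CPM. The group means were 69.7 ± 16.5 (SD, n = 3) in luteolysis, 96.7 ± 17.2 (n = 5) after antigestagen, 111 ± 17.03 (n = 5) at mid-gestation and 121.97 ± 6.24 CPM (n = 2) in luteal regression. Of the 12 dogs outside luteolysis, 11 exceeded the highest luteolysis dog, and antigestagen dog 4 was the exception.

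GATA6 had its lowest mean in the same group. Luteolysis dogs 1, 2 and 3 had 28.8, 22.02 and 16.6 CPM. After antigestagen the levels were 35.7, 30.2, 29.6, 28.6 and 34.2 CPM. At mid-gestation they were 26.6, 35.9, 33.8, 37.4 and 24.6 CPM, so that both pregnant groups without natural luteolysis spanned much the same range. The luteal regression dogs differed from each other, with 32.3 and 50.6 CPM. Means were 22.5 ± 6.11 (SD, n = 3) in luteolysis, 31.6 ± 5.72 (n = 5) at mid-gestation, 31.7 ± 3.11 (n = 5) after antigestagen and 41.5 ± 12.96 CPM (n = 2) in luteal regression. Of the other 12 dogs, 9 lay above the highest luteolysis dog and all 12 above the median one.

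**Figure D1:**
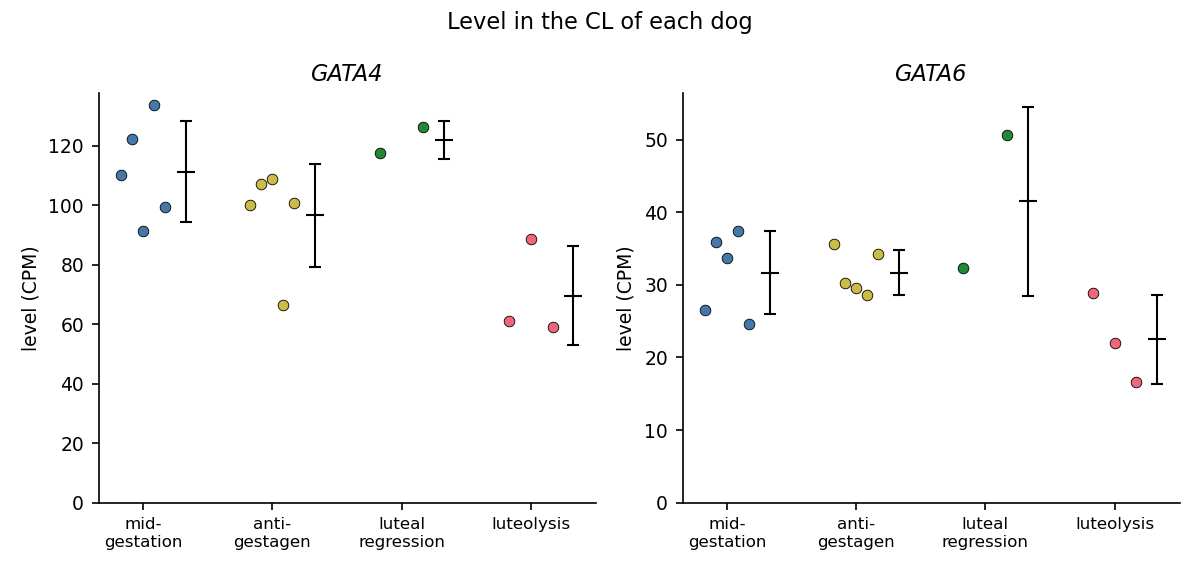
The level of GATA4 (left) and GATA6 (right) in CPM on a linear axis from 0 for each of the 15 dogs, 1 point per dog, with mean and SD of each group beside the points. GATA4 is between 59.1 and 88.7 CPM in luteolysis and at 117.6 and 126.4 CPM in luteal regression, and GATA6 reaches its highest value, 50.6 CPM, in luteal regression dog 2.

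Both genes were measured with many reads, so that counting error was small beside the spread between dogs. GATA4 had 815 to 2767 reads per dog and GATA6 had 287 to 987, with a counting error of at most 3.50% and 5.90%, respectively. The spread between dogs of a group, as the biological coefficient of variation (BCV) in the fit, was 20.8% for GATA4 and 22.05% for GATA6, against 35.0% for the common BCV over all genes. The BCV fitted for genes of like abundance was nearer, at 27.6% for GATA4 and 28.6% for GATA6. A lower dispersion was found in 18.6% of the genes for GATA4 and in 24.0% for GATA6. Across all 15 dogs the highest level was 2.26 times the lowest for GATA4 and 3.04 times for GATA6.

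The first contrast of the study, “luteal regression over luteolysis”, compares the slow decline of the non-pregnant CL with its rapid prepartum end. Both GATA4 and GATA6 were higher in luteal regression, by 1.75-fold and 1.85-fold. The log2 ratio was 0.81 (SE 0.24, 95% confidence interval 0.30 to 1.32) for GATA4, with an adjusted p = 0.0920 in the quasi-likelihood test of edgeR. For GATA6 it was 0.88 (SE 0.26, 0.33 to 1.43), with an adjusted p = 0.0898 (edgeR). Differentially expressed genes (DEG) were those with p below 0.01 and an adjusted p below 0.1, and the whole contrast held 754 DEG among 14768 tested genes (5.11%), of which 225 were higher in luteal regression (1.52% of the genes tested). For both GATA genes the 2 and 3 dogs did not overlap, which also held for 38.1% of all genes tested.

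Both calls lay near the limit. Without luteolysis dog 1, GATA4 had a log2 ratio of 0.76 (adjusted p = 0.113) and GATA6 of 1.13 (adjusted p = 0.0213). GATA4 was also no longer a DEG without luteolysis dog 3 or either luteal regression dog, and GATA6 without luteolysis dog 2 or 3 or either luteal regression dog. The log2 ratios without each dog in turn stayed between 0.75 and 1.02 for GATA4 and between 0.52 and 1.17 for GATA6, the lowest of the latter without luteal regression dog 2. With the 5 dogs of the contrast fitted alone, neither gene was a DEG (adjusted p = 0.254 and 0.284), nor was any other gene with edgeR, although 2360 had an unadjusted p below 0.05.

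“Mid-gestation over luteolysis” sets the fully active CL of pregnancy against its natural end. GATA4 was 1.60-fold higher at mid-gestation, with a log2 ratio of 0.68 (SE 0.20, 95% confidence interval 0.25 to 1.10; adjusted p = 0.0671, edgeR). Its 5 and 3 dogs did not overlap, as was the case for 9.76% of all genes tested. GATA6 had a log2 ratio of 0.49 (SE 0.21, 0.04 to 0.95; adjusted p = 0.210), and 2 of the 5 mid-gestation dogs lay below luteolysis dog 1. Here 1 of the 2 genes was a DEG, against 8.16% of the 14669 genes tested, or 2.43% in the direction of higher levels at mid-gestation. Without luteolysis dog 1 the calls were exchanged, since GATA4 had a log2 ratio of 0.59 (adjusted p = 0.102), and GATA6 was a DEG with 0.71 (adjusted p = 0.0506). GATA4 was likewise no DEG without luteolysis dog 3 or without mid-gestation dog 1, 2 or 4.

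In “luteolysis over antigestagen”, natural and induced luteolysis were compared directly. The log2 ratio was −0.47 (SE 0.20, −0.89 to −0.05) for GATA4 and −0.49 (SE 0.21, −0.95 to −0.04) for GATA6. Neither was a DEG with edgeR (adjusted p = 0.218 and 0.236), where 4.75% of 14473 genes were. The groups overlapped for GATA4 because luteolysis dog 2 (88.7 CPM) lay above antigestagen dog 4 (66.6 CPM), and for GATA6 because luteolysis dog 1 (28.8 CPM) lay just above antigestagen dog 4 (28.6 CPM). Without luteolysis dog 1 the log2 ratio of GATA6 was −0.70 (adjusted p = 0.0588), past both limits of the DEG criterion, and that of GATA4 −0.39 (adjusted p = 0.299). With limma-voom and quality weights, which called 2833 genes of this contrast, both genes were DEG (−0.64 and −0.70, adjusted p = 0.0180 and 0.0414).

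In “mid-gestation over antigestagen”, the contrast of the treatment, neither gene was a DEG, and edgeR called none of the 14399 genes tested, with 980 (6.81%) at an unadjusted p below 0.05. DESeq2 called 87 genes and limma-voom 18 in this contrast, neither GATA4 nor GATA6 among them. GATA4 had a log2 ratio of 0.20 (SE 0.17, 95% confidence interval −0.15 to 0.56; adjusted p = 0.851). For GATA6 the estimate was 0.00 with an interval from −0.39 to 0.39 (SE 0.18), which leaves room for a difference of at most 1.31-fold in either direction at this confidence level. Without antigestagen dog 4 the log2 ratio of GATA4 was 0.09.

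The luteal regression dogs were also set against the pregnant groups, for which no gene was a DEG with edgeR in either contrast. An unadjusted p below 0.05 was found for 2073 genes (14.1%) against mid-gestation and 2496 (17.1%) against antigestagen. DESeq2 called 332 and 920 genes there and limma-voom 2741 and 2408, again without GATA4 and GATA6. Over mid-gestation the log2 ratio was 0.13 (SE 0.22) for GATA4 and 0.39 (SE 0.23) for GATA6. Over antigestagen it was 0.34 (SE 0.22) and 0.39 (SE 0.24). In the latter contrast the GATA4 levels did not overlap, as for 29.7% of all genes tested. The means of GATA4 increased in the order luteolysis, antigestagen, mid-gestation and luteal regression, and those of GATA6 in the order luteolysis, mid-gestation, antigestagen and luteal regression. No pair of neighbours in either order met the DEG criterion with edgeR.

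**Figure D2:**
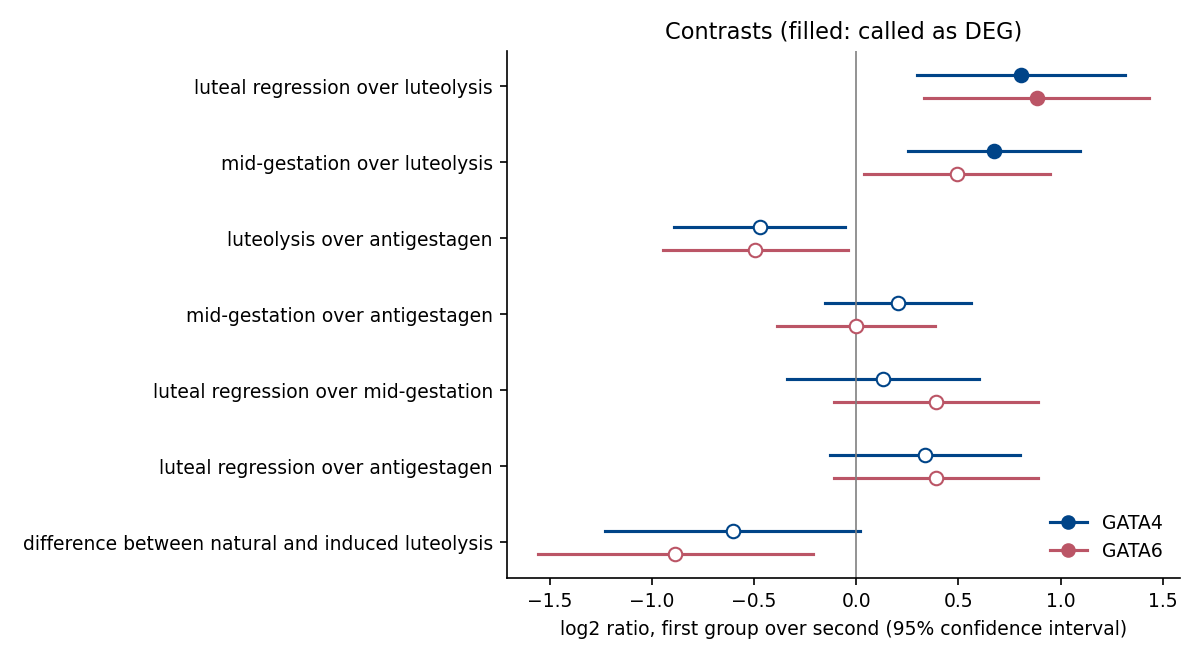
Log2 ratios of GATA4 and GATA6 in each contrast, positive where the group named first is higher, with the 95% confidence interval as a line and DEG as filled points. The filled points are GATA4 and GATA6 in luteal regression over luteolysis (0.81 and 0.88) and GATA4 in mid-gestation over luteolysis (0.68).

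Natural and induced luteolysis were also set against separate references. The log2 ratio of antigestagen over mid-gestation was subtracted from that of luteolysis over luteal regression. The luteal regression dogs were not pregnant, so pregnancy and luteolysis cannot be told apart in this difference. The difference was −0.60 (SE 0.29, 95% confidence interval −1.23 to 0.02; adjusted p = 0.411, edgeR) for GATA4. For GATA6 it was −0.88 (SE 0.32, −1.56 to −0.21; adjusted p = 0.279). No gene of the table was a DEG of this difference (0%), whereas 1869 of 14922 genes (12.5%) had an unadjusted p below 0.05. DESeq2 called 495 genes of this difference without either gene, and limma-voom called 2549 with both, at −0.76 (adjusted p = 0.0400) for GATA4 and −1.07 (adjusted p = 0.0266) for GATA6. Without luteolysis dog 1, GATA6 passed the DEG criterion with −1.13 (adjusted p = 0.0791), together with 684 genes in all, and the GATA4 value was −0.55 (adjusted p = 0.433).

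In the same CL, reads on GATA6 were set against those on GATA4, which cancels the scaling of the libraries. Gene lengths were not used, so the ratio compares dogs and not the abundance of both mRNAs. Over all 15 dogs there were 24.2 to 47.1 GATA6 reads per 100 GATA4 reads, with a median of 28.3. Luteolysis dog 1 was the highest of all dogs with 47.1, whereas luteolysis dogs 2 and 3 had 24.8 and 28.1. Antigestagen dog 4 was next with 42.9, among 27.2 to 35.6 in the rest of its group. The luteal regression dogs had 27.5 and 40.1, and mid-gestation ranged from 24.2 to 37. As log2 ratios the group means were −1.64 ± 0.49 (SD, n = 3) in luteolysis, −1.59 ± 0.27 (n = 5) after antigestagen, −1.59 ± 0.38 (n = 2) in luteal regression and −1.82 ± 0.25 (n = 5) at mid-gestation. All 6 pairs of groups overlapped. The largest difference, 0.23 for luteal regression over mid-gestation, had p = 0.381 in a two-sided exact permutation test, and the adjusted p over the 6 pairs was at least 0.929. With 2 against 3 dogs this test cannot go below 0.200, with 2 against 5 not below 0.0952, and with 5 against 5 not below 0.00794.

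The levels of both genes were correlated over the 15 dogs. Pearson's r of the log2 CPM was 0.66 (permutation p = 0.00721, adjusted p = 0.0216 over 3 relations) and Spearman's rho 0.71 (permutation p = 0.00396, adjusted p = 0.0119). Without luteolysis dogs 1 and 3, the farthest from the median of GATA4, r was 0.53 (permutation p = 0.0669) and no longer passed 0.05. It also missed that limit without luteolysis dog 3 or luteal regression dog 2 alone. After centring in each group r was 0.30, a value that was not tested. The permutations here and for CYP17A1 below shuffled the dogs across all groups. Their p-values therefore include the differences between groups and do not measure covariation between dogs of a group.

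**Figure D3:**
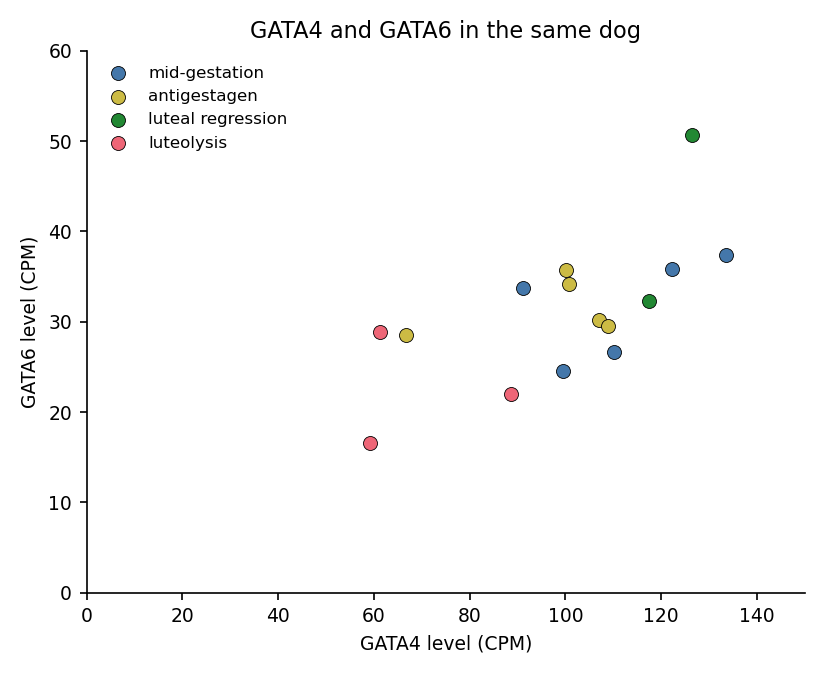
GATA4 level against GATA6 level, both in CPM on linear axes from 0, with 1 point per dog coloured by group. Luteolysis dogs 1 and 3 and antigestagen dog 4 form the low end of GATA4 (59.1 to 66.6 CPM), and luteal regression dog 2 is highest in GATA6 (50.6 CPM).

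Symbols could be taken only from the lists of genes that the study called in its own contrasts on these samples. Counts within the gene groups below are therefore not independent of the contrasts, and most members of each group have no value. The study made those lists with DESeq2, so a DESeq2 call of a gene named below is no independent support. Of the 6 GATA genes, GATA2, GATA4, GATA5 and GATA6 were found. In luteal regression over luteolysis 2 of the 4 were higher (GATA4 and GATA6), where 1.52% of all genes were, with a median log2 ratio of 0.85 against −0.05 over all genes tested. In mid-gestation over luteolysis 1 of the 4 was higher (GATA4), where 2.43% of all genes were, with a median of 0.58 against −0.02. Both medians lie midway between the values of GATA4 and GATA6 given above. These counts and medians thus repeat the results of GATA4 and GATA6 and show no shift of the family beyond them. None of the 4 was a DEG of the other pairs of groups with edgeR over all dogs.

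GATA2, best known from blood and endothelial cells, was measured at 6.23 to 10.0 CPM in luteolysis, 8.77 and 10.5 in luteal regression, 8.12 to 15 at mid-gestation and 10.9 to 18.9 after antigestagen. All 3 luteolysis dogs lay below all 5 antigestagen dogs, as for 7.74% of all genes tested in either direction, with a log2 ratio of −0.76 (SE 0.25, adjusted p = 0.124, edgeR), which missed the DEG criterion. It was a DEG there with DESeq2, and without luteolysis dog 1 the value was −0.57. GATA5, a close relative of GATA4 and GATA6, was weakly covered. Luteolysis dogs had 0.0751, 1.42 and 0.232 CPM, and luteal regression dogs 4.60 and 6.41. Its log2 ratio between these was 3.15 (SE 1.14, adjusted p = 0.159), likewise no DEG with edgeR. It was 2.73 without luteolysis dog 1, and GATA5 was a DEG with DESeq2, with limma-voom and without luteolysis dog 2. Antigestagen dog 4 had no GATA5 read.

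Of 16 partners and co-regulators of GATA factors, LMCD1, JUN and CEBPB were found. LMCD1, a LIM-domain protein known to bind GATA6 and to keep it off DNA, was called in 3 pairs of groups. Luteolysis dogs 2 and 3 had 287 and 497 CPM, whereas luteolysis dog 1 had 14.6. The other groups spanned 13.8 to 28.3 CPM at mid-gestation, 19.9 to 43.8 after antigestagen and 18.6 to 30.1 in luteal regression. LMCD1 was thus high in 2 of the 3 luteolysis dogs, while luteolysis dog 1 lay within the range of mid-gestation. It was lower in mid-gestation over luteolysis (log2 ratio −3.62, SE 0.63, adjusted p = 0.00945) and in luteal regression over luteolysis (−3.45, SE 0.91, adjusted p = 0.0707), and higher in luteolysis over antigestagen (3.13, SE 0.62, adjusted p = 0.0248). Without luteolysis dog 1 these values were −4.19, −3.98 and 3.70, and without luteolysis dog 3, where the remaining pair was split, −2.79, −2.58 and 2.31, of which only the first was still a DEG. In luteal regression over luteolysis LMCD1 was no DEG without either luteal regression dog as well (−3.84 and −3.15). Luteolysis dogs 2 and 3, the dogs with high LMCD1, also had the lowest levels of GATA6 of all 15 dogs. A relation between the levels of LMCD1 and GATA6 was not tested.

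JUN, a subunit of the AP-1 factor, was lowest during luteolysis. It was at 18.0, 18.5 and 28.7 CPM in luteolysis, below every dog of the other groups. Of all genes tested, 38.1% did not overlap between luteolysis and luteal regression, where JUN was no DEG. Against mid-gestation it was 9.76% of the genes, and against antigestagen 7.74%. Mid-gestation dogs had 37.9 to 227 CPM with a median of 58.7, antigestagen dogs 69.6 to 135 with a median of 118, and luteal regression dogs 33.3 and 80.5. JUN was higher in mid-gestation over luteolysis (log2 ratio 2.09, SE 0.52, adjusted p = 0.0392) and lower in luteolysis over antigestagen (−2.35, SE 0.53, adjusted p = 0.0400). Both calls were lost without luteolysis dog 2 or 3, and without luteolysis dog 1 they held, at 1.97 and −2.22. CEBPB, which codes for C/EBPβ, ranged from 4.67 to 33.6 CPM and was no DEG with edgeR over all dogs. In luteal regression over antigestagen (log2 ratio −1.39 in edgeR) it was a DEG with DESeq2 and limma-voom, and in luteolysis over antigestagen without luteolysis dog 1 (−1.43). In all, 1 of the 3 partners was a DEG in luteal regression over luteolysis (5.11% of all genes), 2 of the 3 in mid-gestation over luteolysis (8.16%) and 2 of the 3 in luteolysis over antigestagen (4.75%), with median log2 ratios of −0.31, 0.57 and −1.08 against −0.05, −0.02 and 0.02 over all genes.

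Of 22 gonadal genes listed here as possible targets of GATA factors, CYP17A1, INHBA, FSHR, PRLR and SULT1E1 were found. Whether GATA4 or GATA6 regulates them in the CL of dogs was not tested. STAR, CYP11A1 and the HSD3B genes were among those that could not be looked up. CYP17A1, the enzyme that turns progestagens into androgen precursors, was highest in luteal regression (590.0 and 857 CPM), between 268 and 809 at mid-gestation and at 111 to 334 in luteolysis. After antigestagen it was 27.1 to 205 CPM, below every mid-gestation dog (no overlap was found for 1.24% of all genes), but no gene was a DEG of that contrast with edgeR. CYP17A1 had a log2 ratio of 2.27 there and was a DEG with DESeq2. With edgeR over all dogs it was a DEG in none of the 6 pairs of groups, whereas DESeq2 and limma-voom called it in luteal regression over antigestagen and over luteolysis (2.88 and 1.61 in edgeR), and limma-voom in mid-gestation over luteolysis (1.00 in edgeR). Its r with GATA4 over the 15 dogs was 0.51 (permutation p = 0.0532, adjusted p = 0.0798) with a rho of 0.53 (permutation p = 0.0453, adjusted p = 0.0680), and r was 0.61 after centring in each group. Without luteolysis dogs 1 and 3 that r was 0.70 (permutation p = 0.00700). With GATA6, r was 0.31 (permutation p = 0.259, adjusted p = 0.259) and rho 0.31 (permutation p = 0.266), and r fell to 0.01 without luteolysis dog 3 and luteal regression dog 2.

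INHBA, which codes for the activin A subunit, was at 44.4, 81.3 and 105 CPM in luteolysis and at 15 to 37.8 after antigestagen. The 2 groups did not overlap, as for 7.74% of all genes tested (log2 ratio of luteolysis over antigestagen 1.42, SE 0.32, adjusted p = 0.0396, edgeR). FSHR, the receptor of follicle-stimulating hormone, was lower in luteolysis, with 461 to 835 CPM against 744 to 1944 after antigestagen (−1.08, SE 0.30, adjusted p = 0.0743). SULT1E1, which inactivates oestrogens by sulphation, was barely detected, with 0.00, 0.395 and 0.058 CPM in luteolysis. It had 0.731 to 1.36 CPM at mid-gestation and 1.17 and 1.28 in luteal regression, and was called higher over luteolysis in both (log2 ratios 2.61 and 2.79, adjusted p = 0.0496 and 0.0833). Without luteolysis dog 1, all these calls stood, at 1.70 for INHBA, −1.31 for FSHR and 2.16 and 2.37 for SULT1E1. INHBA (1.11), FSHR (−0.90) and SULT1E1 (2.27 and 2.48) were no longer DEG without luteolysis dog 3. The call was also lost without luteolysis dog 2 for INHBA (1.38) and FSHR (−1.04), without antigestagen dogs 3, 4 or 5 for FSHR (−1.08 to −0.90), and without either luteal regression dog for SULT1E1 (2.85 and 2.73). At 32 reads per dog or fewer, the size of the SULT1E1 ratios depends on the prior count. PRLR, the prolactin receptor, ranged from 65.8 to 175 CPM and was no DEG with edgeR over all dogs, but was one with DESeq2 and limma-voom in luteolysis over antigestagen and luteal regression over antigestagen (log2 ratios −0.86 and −0.85 in edgeR). Among the 5 listed targets 1 was thus a DEG in luteal regression over luteolysis (5.11% of all genes) and 1 in mid-gestation over luteolysis (8.16%), SULT1E1 in both. In luteolysis over antigestagen 2 of the 4 targets tested were DEG (4.75%), as SULT1E1 was too low there. The median log2 ratio was 0.01, 0.42 and 0.21, against −0.05, −0.02 and 0.02 over all genes.

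**Figure D4:**
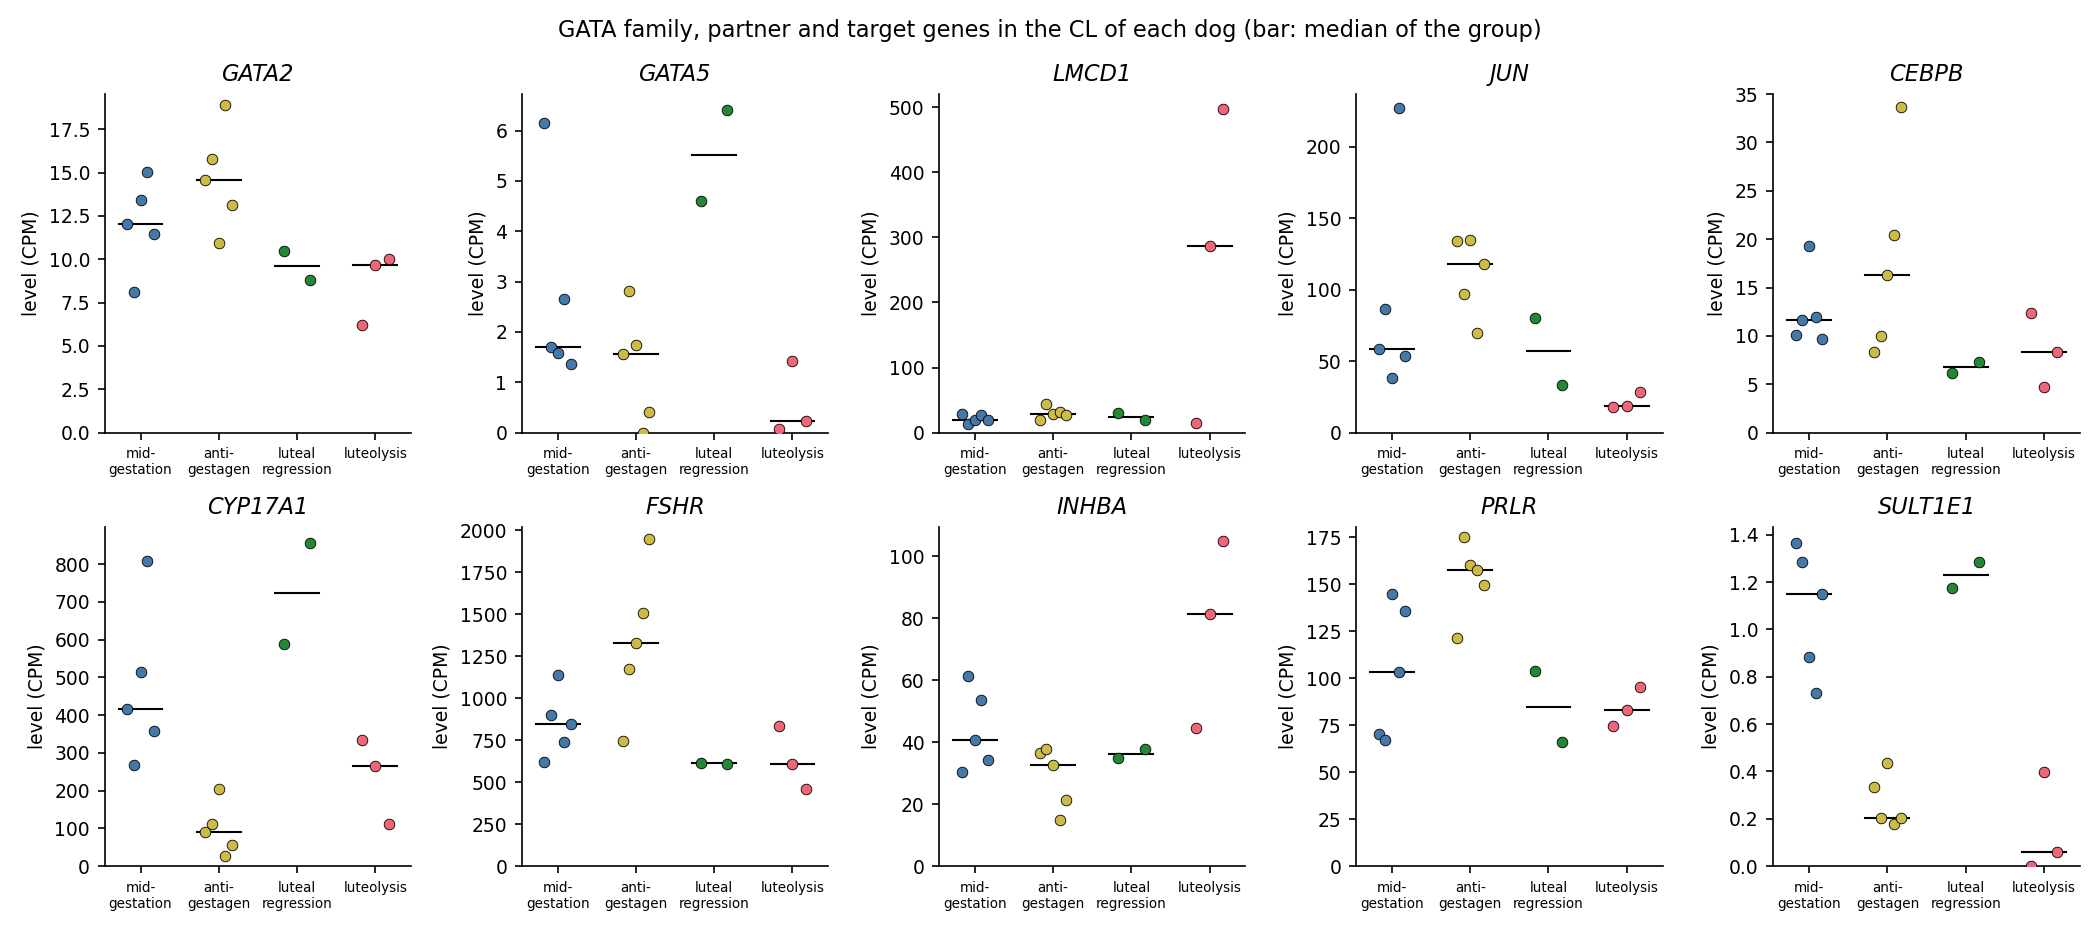
CPM of the further GATA genes, partners and targets in each of the 15 dogs, grouped by condition, on linear axes from 0 that differ between genes, with the group median as a bar. LMCD1 is at 287 and 497 CPM in luteolysis dogs 2 and 3 and at 14.6 CPM in luteolysis dog 1, and JUN is at 28.7 CPM or lower in all luteolysis dogs.

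Markers of other cells of the CL differed between the same groups. For endothelium, PECAM1, VWF, TEK and ENG (4 of 7) could be summed, giving 444 to 876 CPM in luteolysis, 295 and 314 in luteal regression, 279 to 755 at mid-gestation and 490 to 1004 after antigestagen. The defining marker PECAM1 was at 114, 282 and 288 CPM in luteolysis and at 58.2 and 67.9 in luteal regression, where PECAM1 and TEK were DEG (log2 ratios −1.86 and −1.34, and −2.15 and −1.51 without luteolysis dog 1). Both calls were lost without luteolysis dog 3 or either luteal regression dog. In luteal regression over luteolysis 2 of the 4 endothelial markers were thus DEG, against 5.11% of all genes tested. All markers given here have a value only because the study called them in a contrast, so calls among them are not independent of the contrasts. For leukocytes, CD74, ITGAM, AIF1 and CD3E (4 of 9) summed to 796 to 2271 CPM in luteolysis, 631 and 763 in luteal regression, 603 to 1614 at mid-gestation and 1026 to 1518 after antigestagen. CD74 made up most of this sum, with 753 to 2251 CPM in luteolysis. The means of CD74, ITGAM and AIF1 were higher in luteolysis than in luteal regression. CD3E ran the other way, with a mean of 0.585 CPM in luteolysis against 1.03 in luteal regression and 2.003 at mid-gestation. Luteolysis dog 1 had the highest leukocyte sum of all dogs but the lowest ITGAM of its group. PTPRC and CD68 could not be looked up, and ITGAM was the only leukocyte DEG of luteal regression over luteolysis with edgeR (−2.03, and −1.03 and no DEG without luteolysis dog 2). For fibroblasts and pericytes, COL1A1, COL1A2, COL3A1 and PDGFRA (4 of 8) summed to 1902 to 4577 CPM in luteolysis, 5361 and 7034 in luteal regression, 3682 to 14901 at mid-gestation and 3358 to 9207 after antigestagen. In luteolysis, where the means of GATA4 and GATA6 were lowest, the endothelial sum was thus higher than in luteal regression and the fibroblast sum lower, without overlap, as for 38.1% of single genes. COL1A1 and COL3A1 by themselves overlapped between these groups, and no fibroblast marker was a DEG there with edgeR. In mid-gestation over luteolysis COL1A1 (2.09), COL3A1 (1.44) and PECAM1 (−1.24) were DEG, where 8.16% of all genes tested were. The first 2 calls were lost without luteolysis dog 1 (1.96 and 1.36), and all 3 without luteolysis dog 3. PECAM1 was the only endothelial DEG of this contrast, and the other endothelial markers did not all follow it. The mean of ENG was higher at mid-gestation than in luteolysis (150 against 78.5 CPM). VWF was similar (249 against 268 CPM), and TEK was lower at mid-gestation (78.1 against 131 CPM). Antigestagen dog 4, low in GATA4, had the highest endothelial sum of all dogs. The part of cell composition in the levels of GATA4 and GATA6 was not tested.

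The genes whose levels over the 15 dogs ran most like those of GATA4 and GATA6 were sought among the 11444 genes whose mean count reached 50 in each of the groups, 2347 of them with a symbol. The dogs share the differences between groups and the depth of their library, so the coefficients are descriptions. Among the genes closest to GATA4 were BCHE (butyrylcholinesterase, r = 0.93), TCF7L2 (a factor of the Wnt pathway, 0.91), PTGFRN (0.91) and ROR2 (a receptor of Wnt ligands, 0.91). ROR2, for example, was at 6.01 to 14 CPM in luteolysis, 26.9 and 29.2 in luteal regression and 13.6 to 25.3 at mid-gestation. Antigestagen dog 4, low in GATA4, was also the lowest of its group for ROR2, with 5.26 CPM against 17.6 to 17.9. After centring in each group, the closest genes with a symbol included ROR2 (0.87), ADCY2 (an adenylate cyclase, 0.87), TAGAP (0.85) and FEZ1 (0.85). Among all 11444 genes these ranked 10th, 11th, 16th and 20th, and the highest r of any gene was 0.90.

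For GATA6 the order among the genes with a symbol was SMO (0.88), AGAP3 (0.84), HYKK (0.83), METTL7A (0.81) and PATZ1 (0.81). SMO, the signal transducer of the hedgehog pathway, was at 51.1 to 78.3 CPM in luteolysis, at 107 in both luteal regression dogs, at 80.8 to 103 at mid-gestation and at 77.5 to 94.1 after antigestagen. After centring, the order was DNAAF2 (0.79), ANKRD54 (0.79), SEC14L4 (0.78), METTL7A (0.75) and HYKK (0.74). No gene stood in the list of both GATA4 and GATA6. Ranked by r over all dogs among the 11444 genes, GATA6 came 350th for GATA4 and GATA4 170th for GATA6, and after centring 2415th and 2755th.

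**Figure D5:**
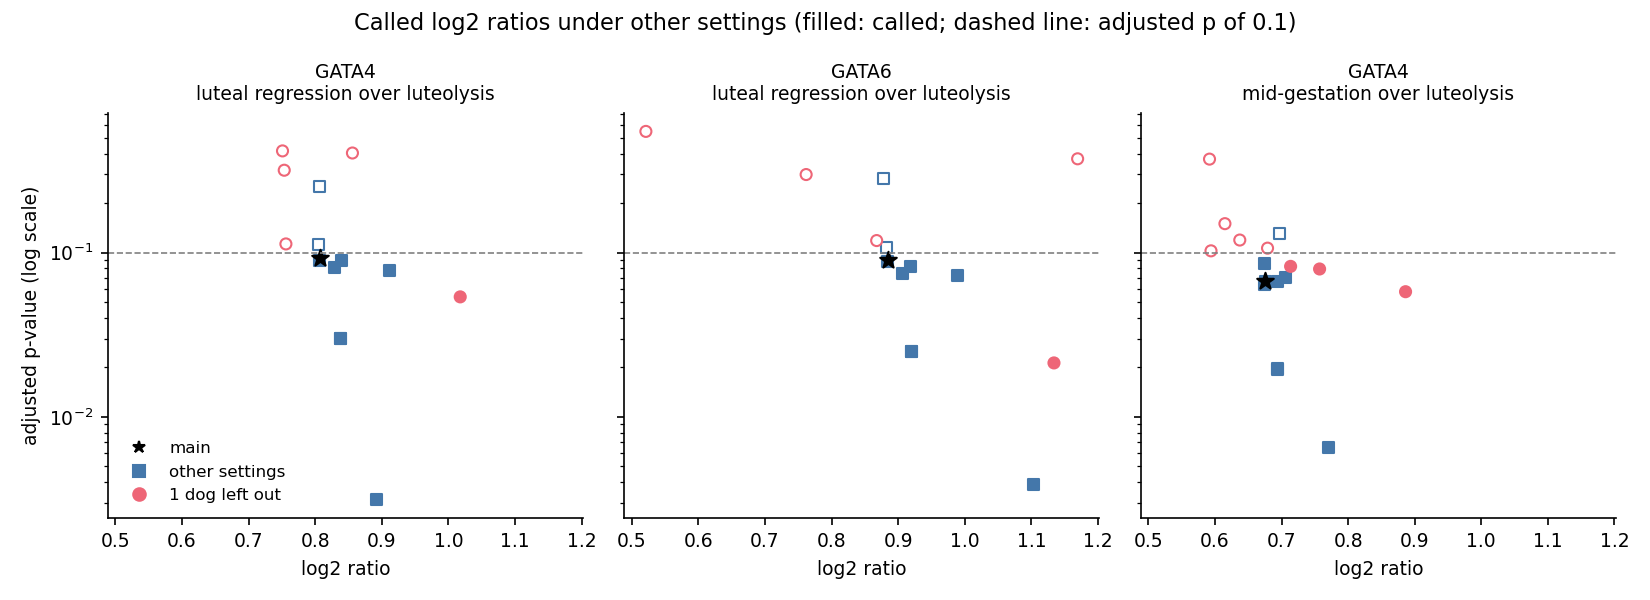
Log2 ratio against adjusted p-value (log axis) for the 3 DEG calls, with the main value as a star, other settings as squares and fits without 1 dog as circles, filled where the DEG criterion was met. All values lie above 0.5 in log2 ratio, while the adjusted p crosses 0.1 in each panel.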

How the data were processed

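Reads of 15 libraries (single end, poly-A selected) were, per the labels, processed with CASAVA 1.8, bcl2fastq 1.8.4, STAR 2.5.1b and featureCounts on CanFam3.1. The authors deposited raw read counts per Ensembl gene, without normalization or filter. Counts of 10000 or more carry 4 significant digits. Nothing says that multi-mapped or antisense reads were separated. Groups came from the condition and title of each sample, and for mid-gestation dog 1, whose description names another group number, these were followed.

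The 14922 genes whose mean count reached 10 in a group were fitted over all dogs with TMM in edgeR 4.0.16 (R 4.3.3). The two-sided quasi-likelihood F-test was applied per contrast to genes passing the filter in its groups. P-values were Benjamini-Hochberg adjusted, and DEG had p below 0.01 and an adjusted p below 0.1, the criteria of the study. The log2 CPM for correlations used a prior count of 2. Correlations were tested with 100000 permutations that shuffled the dogs across all groups, and read ratios with exact permutation tests (SciPy 1.17.1). The script was tested on simulated data. Replicate dogs differed beyond sampling noise, with a chi-squared per degree of freedom of 33.8 to 275.

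The members and gene lists were chosen with earlier results of these data known. The study also selected GATA4 and GATA6 for qPCR from these libraries. Its qPCR used all tissue samples, among them luteal regression dogs that have no library here. It found both genes higher in luteal regression than in luteolysis. For GATA4 it found no difference between mid-gestation and luteolysis, a pair in which GATA4 was called here. The sequencing of the study had likewise predicted GATA4 to be lower in luteolysis in that pair. The qPCR found GATA4 higher at mid-gestation than after antigestagen, a pair in which GATA4 was not called here. Symbols came from the supplementary gene lists of the study, which pair 2970 identifiers. Named were both genes, the GATA family, partners and targets called in any contrast, marker sums and defining markers, and the 5 symbols with the highest r for each gene, of which 1 is not reported here. CEBPB, CYP17A1 and PRLR, not called with edgeR over all dogs, were named after their values were seen. Alternatives were other scalings, DESeq2 1.42.0, limma-voom (limma 3.58.1), other filters and left-out dogs. No sequence or coordinate is given, since no annotation of this build was used here.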

Additional observations from a re-analysis of the deposited data

Results flagged for a closer look

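In groups of 5 dogs, a dog was singled out when its gap to the nearest other dog exceeded 0.710 of the whole range of the group (Dixon's 95% limit). The 12 GATA family, partner and target genes and the read ratio gave 26 such groups, of which chance flags about 1 in 20 (1.3 expected), and 4 were found. GATA4 was at 66.6 CPM in antigestagen dog 4, against 100.2 to 109 in the rest of its group, and the gap made up 0.793 of the range. GATA5 was at 6.14 CPM in mid-gestation dog 1, against 1.37 to 2.66. CEBPB was at 19.3 CPM in mid-gestation dog 3, against 9.71 to 11.9. JUN was at 227 CPM in mid-gestation dog 4, against 37.9 to 86.6, and was still a DEG of mid-gestation over luteolysis without this dog. Groups of 2 and 3 dogs, luteolysis among them, were not tested in this way.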

How the results depend on the processing

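The log2 ratios of GATA4 and GATA6 in luteal regression over luteolysis and in mid-gestation over luteolysis stayed above 0 in all 9 other settings and without any dog, but their calls did not. In luteal regression over luteolysis GATA4 was no longer a DEG without a filter on low counts (0.81, adjusted p = 0.112) or with the 5 dogs fitted alone (0.81, adjusted p = 0.254), and neither was GATA6 (0.88 in both, adjusted p = 0.107 and 0.284). GATA4 in mid-gestation over luteolysis was lost with the dogs of the contrast alone (0.70, adjusted p = 0.130). Leaving out each dog of luteal regression over luteolysis gave 0.75 to 1.02 for GATA4 (1 of 5 fits a DEG) and 0.52 to 1.17 for GATA6 (1 of 5). In mid-gestation over luteolysis they ran from 0.59 to 0.89 (3 of 8) and from 0.34 to 0.71 (1 of 8). A single dog left in luteal regression is assumed to vary like the other groups. With limma-voom and quality weights more results were DEG: GATA6 in mid-gestation over luteolysis (0.73), GATA4 and GATA6 in luteolysis over antigestagen (−0.64 and −0.70) and in the difference between natural and induced luteolysis (−0.76 and −1.07), in fits that called 3220, 2833 and 2549 genes. Without each dog, GATA6 ran from −0.70 to −0.33 in luteolysis over antigestagen and from −1.17 to −0.52 in the difference, and was a DEG in both without luteolysis dog 1 only.

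GATA6 in mid-gestation over antigestagen, with an estimate near 0, changed sign in 6 of the 10 fits without a dog, which ran from −0.059 to 0.078 (−0.016, −0.023 and −0.041 without antigestagen dogs 2, 3 and 4, and −0.057, −0.0074 and −0.059 without mid-gestation dogs 2, 3 and 4). Most differences in the log2 ratio of GATA6 to GATA4 reads also changed sign without single dogs. Values lay between −0.22 and 0.33 for luteal regression over luteolysis, −0.36 and 0.099 for mid-gestation over luteolysis, −0.33 and 0.14 for luteolysis over antigestagen, −0.27 and 0.27 for luteal regression over antigestagen (−0.035 for medians) and −0.042 and 0.50 for luteal regression over mid-gestation. Mid-gestation over antigestagen kept its sign (−0.32 to −0.13). The r of GATA4 with GATA6 ran from 0.48 to 0.73 without each dog and lost its call without luteolysis dog 3 or luteal regression dog 2, and without the dogs farthest in GATA4 (0.53). The r of GATA4 with CYP17A1 passed 0.05 without those dogs (0.70), and ran from 0.36 to 0.65 without each dog, passing without luteolysis dog 1 and antigestagen dog 5.

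The number of DEG in luteal regression over luteolysis was 3646 with limma-voom, 1567 with DESeq2, 1593 without luteolysis dog 1, 545 unfiltered and 0 with the 5 dogs alone. Upper-quartile scaling moved the median log2 ratio of all genes in that contrast by 0.10 and the share of DEG higher in luteal regression from 29.8% to 42.9%, and GATA4 and GATA6 stayed DEG (0.91 and 0.99). In the same contrast 0 to 3 of the 4 GATA genes were DEG over the other settings, counts that, like the settings of the partner, target and marker genes, were added after seeing the data. Scaling by the reference genes of the study was not run, since none had an identifier. Each dog gave 1 library in 1 group, so there were no pairs of libraries to analyse. The causes were not tested.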
